A study of Rattus norvegicus with 10 samples.

Results

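The 200 most abundant annotated transcripts of the nonischemic rat hemisphere were examined in both hemispheres of 5 rats. They were chosen by their FPKM in the 5 left libraries, as the Ensembl transcripts (identifiers beginning with ENSRNOT) with the highest mean there, and they are called the abundant transcripts from here on. They were 200 of the 30242 Ensembl transcripts and of the 32166 rows of the table, whose other 1924 rows are lncRNAs assembled by the authors and could not be chosen. FPKM is the number of sequenced fragments of a transcript, divided by its length and by the mapped reads of the library, so that levels of transcripts of unequal length can be set side by side.

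The animals were male Sprague Dawley rats, named P45, P52, P61, P71 and P72, whose brains were taken 24 hours after a suture had closed the middle cerebral artery for a limited time (MCAO). One library was made from tissue of each hemisphere, which gave 5 left and 5 right libraries. The study took this tissue from the middle slices of the brain and describes it as cortex. Hemisphere here means the tissue sampled from that side. The labels state the side but not which side was occluded. The right hemisphere is called ischemic here and the left is called its paired nonischemic control because the study draws the suture on the right and gives a negative log ratio of left to right for a lncRNA that it describes as raised by stroke. Its deficit scale alone, which names the right paw, would go with the other side. If the sides were exchanged, the transcripts would have been chosen on the ischemic side and each change would turn its sign. There were no sham-operated animals, so the nonischemic hemisphere is that of an animal with a stroke. The table identifies transcripts without gene names, so the tissue could not be checked against markers of neurons, glia or blood, and no gene name, length or sequence is given. None of the 11 Ensembl transcripts that the study pairs with a name was among the 200. The nearest was AABR06026863.1, a processed pseudogene, at rank 453 of the left hemisphere.

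As background, a small number of highly expressed genes takes up a large part of the messenger RNA of any tissue. In brain these commonly include genes of mitochondrial respiration, the cytoskeleton, calcium signalling, myelin and protein synthesis. Ischemia kills neurons, slows transcription in the injured territory and draws in immune cells. In pieces of whole tissue, fewer cells of a type and less RNA in each cell cannot be told apart.

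In the nonischemic hemisphere the abundant transcripts had mean levels from 3224 FPKM at rank 1 to 292 FPKM at rank 200, and 22 of them had a mean of at least 1000 FPKM. In the ischemic hemisphere 18 of the 200 did. The last 2 transcripts inside the limit of the list had mean levels of 295 FPKM and 292 FPKM, and the first 2 outside it had 289.8 FPKM and 289 FPKM, so that the limit marks no step in level. Each left library had between 183 and 192 of the 200 among its own 200 highest Ensembl transcripts, and 157 were among them in every left library. The same libraries set the list, so a large overlap is favoured by the choice.

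**Figure D1:**
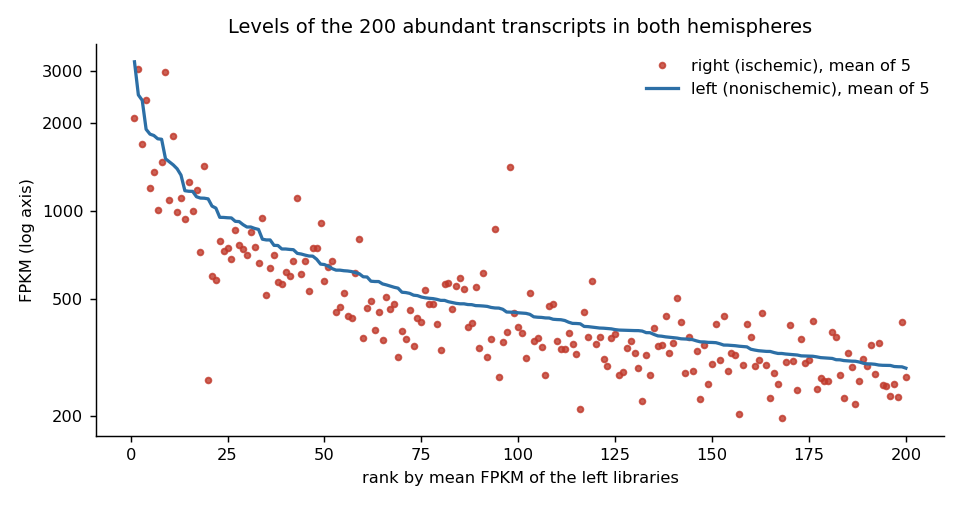
Mean level of the 200 abundant transcripts in FPKM, on a log axis, against their rank in the nonischemic hemisphere. The line is the mean of the 5 left libraries, by which the ranks were set, and each point is the mean of the 5 right libraries. Most points lie below the line, and rank 9, at 2979 FPKM, and rank 98, at 1415 FPKM, lie far above it.

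Together the abundant transcripts held 23.0% ± 0.366 of the FPKM sum of a nonischemic library and 21.7% ± 0.802 of that of an ischemic library (SD, n = 5 each). The share was 22.6%, 23.4%, 22.7%, 23.0% and 23.4% in the left libraries of P45, P52, P61, P71 and P72, and 22.5%, 22.1%, 21.1%, 20.6% and 22.0% in the right libraries in the same order. The share was lower on the ischemic side in each of the 5 rats, with a difference of -0.0672 percentage points in P45 and of -2.405 percentage points in P71, and every right library lay below every left one. No test is given for this difference, since the left values chose the list and so raise the left share. The total of all FPKM values was 517015 ± 10255 on the left and 496236 ± 17811 on the right (SD, n = 5 each) and was lower on the right in 4 of 5 rats.

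The difference in share was also taken with lists chosen in other ways. When the 200 transcripts were chosen for each rat from the left libraries of the other 4 rats, between 197 and 198 of them were shared with the list, and the ischemic minus the nonischemic share was -1.31 ± 0.887 percentage points (mean ± SD, n = 5), with 0.0860 percentage points in P45 and a lower ischemic share in the other 4 rats. When each library was described by its own 200 highest Ensembl transcripts, which treats both sides alike, the share was 23.2% ± 0.397 on the left and 22.6% ± 0.629 on the right (SD, n = 5 each). It was lower on the right in 4 of 5 rats and higher in P45. With the list drawn from the mean of both sides, the ischemic minus the nonischemic share was -0.873 percentage points on average. When the list was drawn from the right libraries, whose values then raise the right share, the mean share was higher on the right by 0.0315 percentage points. The number of Ensembl transcripts needed to reach 50% of the FPKM sum was between 1112 and 1172 in the left libraries and between 1185 and 1200.0 in the right ones other than P71, which had 1377, and was larger on the right in all 5 rats.

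**Figure D2:**
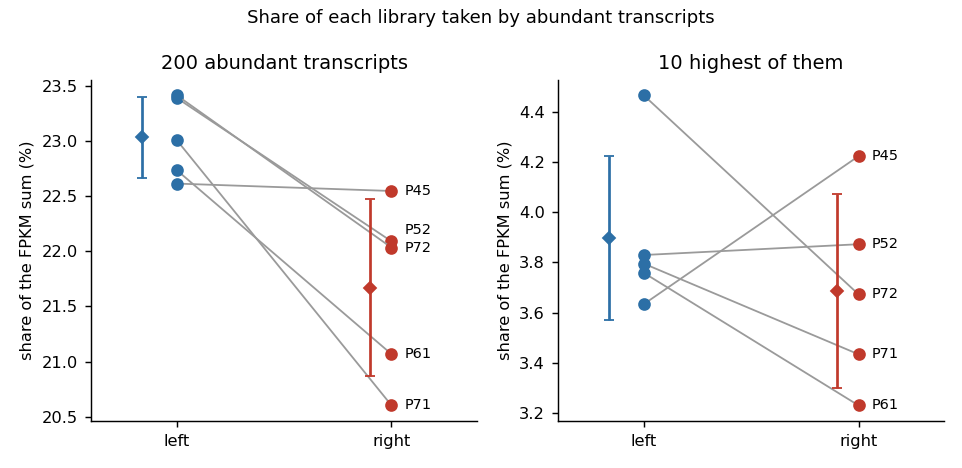
Share of the FPKM sum in percent taken by the 200 abundant transcripts and by the 10 highest of them, on axes that do not start at 0. Lines join both hemispheres of a rat, and diamonds with bars give the mean and SD of 5 libraries. The share of the 200 is lower on the right in each rat, whereas that of the 10 highest is higher on the right in P45 and P52.

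The 10 highest transcripts held between 3.63% and 4.46% of a left library and between 3.23% and 4.22% of a right one, and their order differed between the hemispheres. The transcript of rank 1 was at 3467, 3105, 2544, 3363 and 3638 FPKM in the left libraries of P45, P52, P61, P71 and P72, and at 1938, 2051, 1935, 2139.6 and 2291 FPKM in their right libraries. It was lower in all 5 rats, with no overlap between the sides, and held rank 4 on the right. The change, ischemic minus nonischemic on the log2 scale, was -0.63 with a standard error of 0.13 (limma's adjusted p = 0.035). Rank 5 also fell. Its mean was 1828 ± 191 FPKM on the left and 1197 ± 193 FPKM on the right (SD, n = 5 each), and its log2 change of -0.62 had a standard error of 0.12 (limma's adjusted p = 0.0301). Neither fall passed the threshold without P45, without P52 or without P61, where limma called 0 of the 200 and between 0.0573% and 0.301% of all transcripts tested lower.

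The other 8 of the 10 did not pass the adjusted threshold. Ranks 3, 6 and 8 were lower on the right in all 5 rats, with log2 changes of -0.51, -0.41 and -0.25 and adjusted p of 0.0589, 0.0773 and 0.227. Rank 2 became the highest transcript of the ischemic hemisphere on average, at 2486 ± 238 FPKM on the left and 3043 ± 560.1 FPKM on the right (SD, n = 5 each), and was higher in 4 of 5 rats. Rank 4 was higher on the right in 3 of 5 rats. It was at 1244 and 2536 FPKM on the left and right of P45 and at 2126 and 1553 FPKM on those of P52. Ranks 7 and 10 were lower in 4 of 5 rats and higher in P72.

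Rank 9 had the widest swings of the 10. It was at 439.6, 1900.0, 989 and 22.4 FPKM in the left libraries of P45, P52, P61 and P71 and at 4182 FPKM in that of P72. In the right libraries of the 5 rats in the same order it was at 5705, 4611, 1562, 940.3 and 2077 FPKM. It was the highest Ensembl transcript of the right libraries of P45 and P52 and of the left library of P72, where it held 1.14%, 0.922% and 0.835% of the FPKM sum. Its coefficient of variation was 110% on the left and 69.3% on the right, and its log2 change of 2.003 had a standard error of 0.88 (adjusted p = 0.205 from limma).

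The change of each transcript was estimated on the scale of log2(FPKM + 0.1) in a paired model with the rat as a block, fitted to the 20936 transcripts with a mean of at least 0.1 FPKM, and the p-values were adjusted over all of these. All 200 abundant transcripts entered the fit. In it 5 of them (2.5%) were called higher and 13 (6.5%) lower on the ischemic side, at an adjusted p under 0.05. Over all transcripts tested 5.52% were called higher and 2.19% lower. At an unadjusted p under 0.05, 15 were higher and 79 lower, against 14.1% and 12.5% of all transcripts tested. Because the same left values chose the list, low right values are favoured in it, and these counts are a description.

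The counts also moved with the choice of the list and with single rats, and so did the share called over all transcripts tested. The 200 highest transcripts by the mean over both sides shared 189 with the list, and 9 of them were called higher and 12 lower. Of the 200 highest by the mean of the right libraries, 16 were called higher and 10 lower. Without P45 or without P52 limma's fit called none of the abundant transcripts in either direction, with 8 higher and 46 lower, and 10 higher and 49 lower, at an unadjusted p under 0.05. Of all transcripts tested it called 1.19% higher and 0.0573% lower without P45, and 1.42% and 0.301% without P52. At an unadjusted p under 0.05 these shares were 10.6% and 7.67% without P45 and 12.1% and 10.3% without P52. Without P61 it called 1 higher and 0 lower (10 and 48 unadjusted), against 1.64% and 0.172% of all (11.4% and 8.54% unadjusted). Without P71 it called 3 higher and 4 lower, against 3.36% and 0.678%, and without P72 3 higher and 31 lower, against 5.43% and 2.94%. With no block for the rat it called 3 higher and 29 lower, against 6.72% and 3.54%. After rescaling each library to the same FPKM sum (TPM) the split was 8 higher and 13 lower, against 6.33% and 1.42%.

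**Figure D3:**
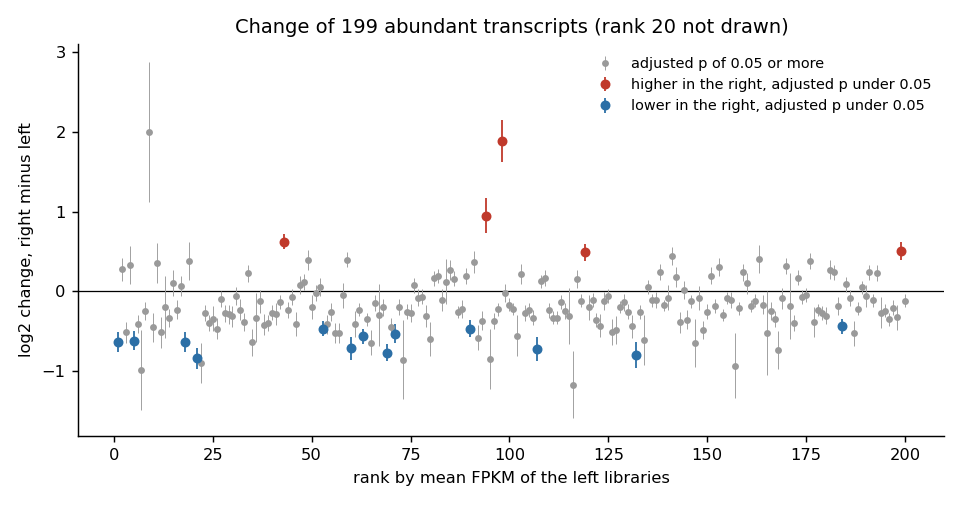
Log2 change, ischemic minus nonischemic, of the abundant transcripts other than rank 20 against their rank, with bars of 1 standard error from the paired limma fit. Coloured points passed an adjusted p of 0.05. Rank 20 was listed at 0 in some libraries of both sides, and more points lie below 0 than above.

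The direction was shared by many abundant transcripts that were not called. In the fit 151 of the 200 had a change below 0 and 49 above 0, and the median over the 200 was -0.22, against -0.01 over all transcripts tested. In 67 of the 200 (33.5%) the ischemic level was lower in each of the 5 rats, and in 12 (6%) it was higher in each, against 11.1% and 13.7% of all transcripts tested. In 35 (17.5%) every right library lay below every left library and in 3 (1.5%) every right library lay above, against 3.62% and 6.41% of all transcripts tested. All of these counts share the left values with the choice of the list.

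This was not particular to the first 200 ranks. Among the next 200 transcripts of the nonischemic hemisphere 4 were called higher and 11 lower, with a median change of -0.22. The following 600 had a median of -0.19, with 18 called higher and 53 lower, and the 4000 after those had a median of -0.12, with 156 higher and 223 lower. Within the 200, the median change was -0.43 over ranks 1 to 10, -0.27 over ranks 11 to 50, -0.24 over ranks 51 to 100 and -0.18 over the last 100. No test of a trend over ranks was made, since ranks were set by the left values.

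Of the abundant transcripts that rose and moved in the same direction in all rats, ENSRNOT00000034401 (rank 98) had the largest change. It was at 259, 316.7, 1085, 308 and 293 FPKM in the left libraries of P45, P52, P61, P71 and P72, and at 1399.9, 1264, 1674, 1525 and 1213 FPKM in the right ones. The left library of P61 stood far above the other 4, and every right library lay above every left one. The change of 1.88 on the log2 scale had a standard error of 0.26 (limma's adjusted p = 0.0123), and it was 0.63 in P61 and between 1.997 and 2.43 in the other rats. The adjusted p from limma was 0.0714 without P45 and 0.0599 without P52.

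ENSRNOT00000045628 (rank 94) rose next most. It was at 321, 579, 592, 297 and 548 FPKM on the left and at 948, 772, 1039, 884 and 711 FPKM on the right, in the same order of rats, again with no overlap. The rise was larger in P45 and P71, whose left libraries were the lowest, with log2 changes of 1.56 and 1.58, than in the other 3, with 0.38 to 0.81. The mean of the 5 was 0.95 with a standard error of 0.22 (limma's adjusted p = 0.0497), at the edge of the threshold, and limma's adjusted p was 0.176 without P45, 0.0867 without P52, 0.14 without P61 and 0.118 without P71. The other 3 that rose, rank 43, rank 119 and the last but one of the list, had log2 changes of 0.63, 0.49 and 0.51. Rank 43 moved by 0.67 to 0.71 in P45, P52, P61 and P71 and by 0.39 in P72.

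The 13 abundant transcripts that fell had log2 changes from -0.44 to -0.84 (median -0.63) and fell in all 5 rats, and in 10 of the 13 the sides did not overlap. A call in the paired fit favours both of these traits. Over all transcripts tested 11.1% were lower in each rat, and in 3.62% every right library lay below every left one. The ischemic means of the 13 were between 57.6% and 74.4% of the nonischemic ones. ENSRNOT00000015535 (rank 21) fell most. It was at 969.8, 940.0, 966, 1220.1 and 1100.2 FPKM on the left and at 493, 396, 521.5, 811 and 777 FPKM on the right, so that each right library lay below each left one. The change of -0.84 on the log2 scale had a standard error of 0.13 (limma's adjusted p = 0.0183). ENSRNOT00000004797 (rank 132) was at 438, 374, 403, 436 and 299 FPKM on the left and at 231, 236, 189.7, 188 and 279 FPKM on the right. Its change was -0.80 with a standard error of 0.17 (limma's adjusted p = 0.0383), with -0.10 in P72 and -0.67 to -1.21 in the other rats. Without P45, P52 or P61 limma's adjusted p was 0.102, 0.0687 and 0.0813 for ENSRNOT00000015535. For ENSRNOT00000004797 it was 0.155, 0.102, 0.136 and 0.0976 without P45, P52, P61 or P71.

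**Figure D4:**
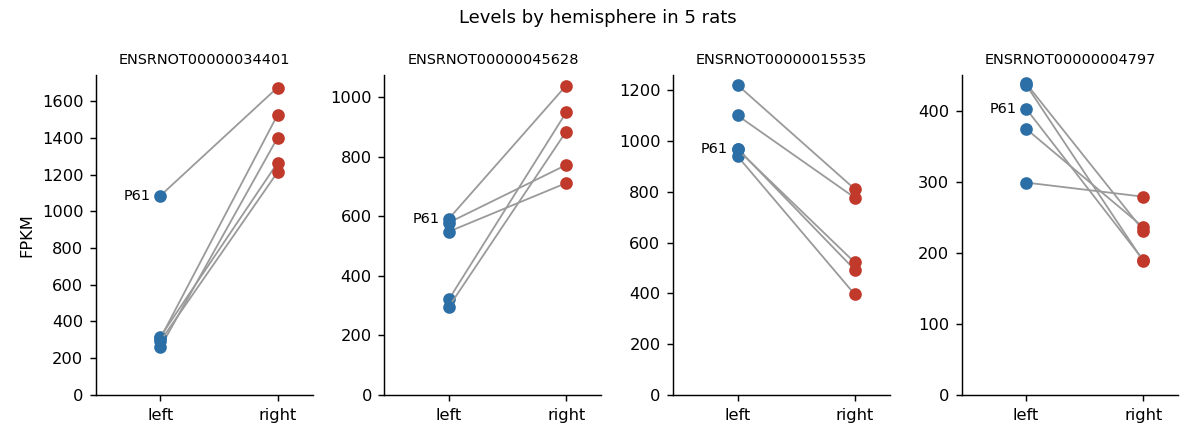
FPKM, on axes from 0, of the 2 abundant transcripts with the largest rises and the 2 with the largest falls among those called in the paired fit with the same direction in all rats. Lines join both hemispheres of a rat, and P61 is named on the left. Right and left libraries do not overlap in any of the 4, and P61 stands apart on the left for ENSRNOT00000034401.

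The rats differed in how far the abundant transcripts moved. The median change over the 200 was -0.20 in P45, -0.21 in P52, -0.23 in P61, -0.32 in P71 and 0.0092 in P72, a mean of -0.19 with an SD of 0.12 (n = 5), while the median over all transcripts tested was between -0.012 and 0.038 in each rat. Of the 200, between 138 and 167 were lower on the ischemic side in P45, P52, P61 and P71, and 96 were lower and 104 higher in P72. With the transcripts chosen from the other 4 rats the median was between -0.20 and -0.32 in P45, P52, P61 and P71 and 0.013 in P72. The next 200 transcripts gave 0.031 in P72 and between -0.19 and -0.31 in the others.

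Large negative changes of the abundant transcripts were most frequent in P61 and P71. A log2 change of -1 or lower, which is a level of 50% or less, was seen in 20 abundant transcripts in P61 and in 16 in P71, against 4 in each of P45, P52 and P72. The matching share of all transcripts tested is not given here for single rats. Whether these counts were particular to the abundant transcripts was not tested. P61 and P71 shared 13 of the abundant transcripts with such a change, which is 6.5% of the 200, against 3.58% of all transcripts tested. Since P61 and P71 chose these 13, their low medians in those rats follow from the choice, in which the other rats had no part. The 13 had median changes of -1.59 in P61 and -1.62 in P71, of -0.64 in P45 and -0.34 in P52, and of 0.23 in P72, where 8 of the 13 were above 0. The member at rank 7 was among them. It was at 2086 and 454 FPKM on the left and right of P61, at 2309 and 387 FPKM on those of P71, and at 1044 and 1911 FPKM on those of P72. Over the abundant transcripts other than rank 20, the changes of P61 and P71 correlated with Pearson's r = 0.707 (Spearman's rho = 0.766). Those of P45 and P71 had r = 0.721 (rho = 0.507). P45 had r = 0.657 with P52 (rho = 0.644) and 0.549 with P61 (rho = 0.686). P52 had r = 0.464 with P61 (rho = 0.631) and 0.320 with P71 (rho = 0.348). The changes of P72 correlated with r = 0.357 for P45, 0.369 for P52, -0.193 for P61 and -0.174 for P71. In the same order, rho for P72 was 0.505, 0.394, 0.0838 and -0.0067, so that by rank its changes were nearly unrelated to those of P61 and P71. The transcripts of a library share its depth and its tissue and are not independent, so no p is given.

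**Figure D5:**
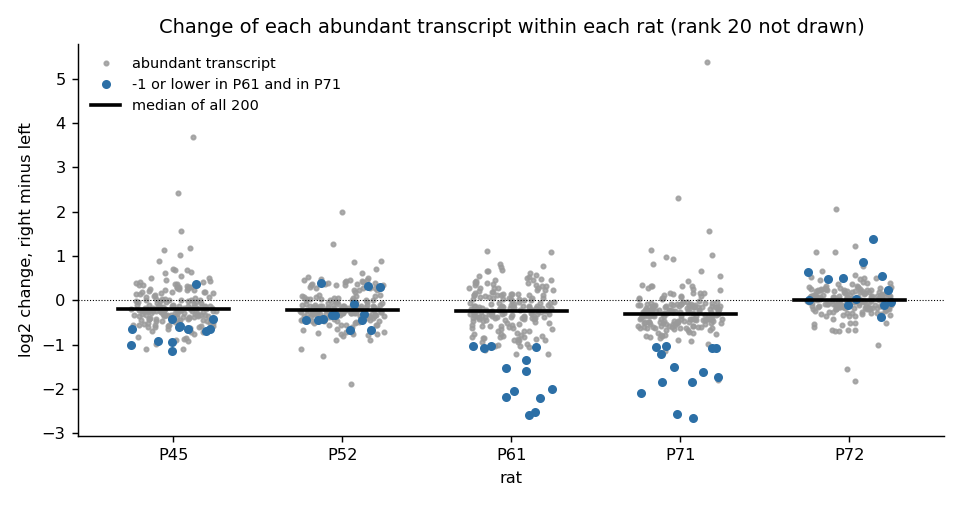
Log2 change, ischemic minus nonischemic, of the abundant transcripts other than rank 20 within each rat. Larger points are the 13 that changed by -1 or lower in both P61 and P71, and black lines are medians of all 200. The larger points scatter around 0 in P72, whose median is 0.0092.

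The levels were also less alike between rats on the ischemic side. The median coefficient of variation over the 200 was 10.4% among left libraries and 15.1% among right libraries, and the next 200 transcripts had 10.1% and 14.7%. The coefficient was over 50% in 6 abundant transcripts on the left and 11 on the right, and in 1 and 4 of the next 200. Rank 20 and rank 69 are described because of their values. Rank 20 was listed at 0 in the left libraries of P45 and P61 and at 1573, 2561 and 1365 FPKM in those of P52, P71 and P72, and on the right at 0 in P45, P52 and P71, 825.5 FPKM in P61 and 501 FPKM in P72. It was the only one of the 200 listed at 0 anywhere, and a listed 0 is not read here as absence. Rank 69 was low in both hemispheres of P71, at 44.4 and 28.5 FPKM, against 639.9 to 708 FPKM on the left and 306 to 493 FPKM on the right of the other rats, and it changed by -0.77 with a standard error of 0.10 on the log2 scale (limma's adjusted p = 0.0115), a call that was also lost without P45, P52 or P61.

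The list of the most abundant transcripts was partly exchanged between the hemispheres. Of the 200, 170 (85%) were also among the 200 highest of the ischemic hemisphere, and 30 (15%) were not. Single right libraries held between 153 and 176 of the 200 among their own 200 highest, with the fewest in P61 and the most in P72, and 126 were among the 200 highest of all 10 libraries. The 30 that left the list had ranks down to 333 on the right, and 3 of them were called lower. The 30 that entered it came from ranks 203 to 5805 of the nonischemic hemisphere, 22 of them from ranks up to 400, and 11 were called higher and 0 lower in the paired limma fit. Over all transcripts tested 5.52% were called higher and 2.19% lower. The 30 that entered were chosen by their high right values and the 30 that left by their lower ones. Both choices favour the directions seen. AABR06026863.1 was one of those that entered, at 172 ± 17.5 FPKM on the left and 324 ± 67.4 FPKM on the right (SD, n = 5 each), and it moved from rank 453 to rank 157. The entrant from rank 5805 was at rank 160 on the right. Its mean was 19.4 FPKM on the left and 322 FPKM on the right, and it was higher on the right in 5 of 5 rats, by 4.52 on the log2 scale with a standard error of 0.39. On the left P61 was at 64.0 FPKM and the other 4 rats were between 5.26 and 11.8 FPKM.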

How the data were processed

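RNA libraries of the left and right hemisphere of 5 rats were compared, 10 in all. The authors aligned paired reads to the rn5 genome using TopHat, ran Cufflinks on the alignments with Ensembl gene models, and deposited an FPKM value for each transcript in each library, without pooling rats. The FPKM table holds no read counts, so the depth of each library is unknown here and no interval from counts is given. The list of assembled lncRNAs was not used.

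Ensembl transcripts were ranked by the mean of the left libraries. On log2(FPKM + 0.1), limma 3.58.1 in R 4.3.3 (lmFit, eBayes with a trend) was fitted to the 20936 transcripts with a mean of at least 0.1 FPKM, with the side as the effect and the rat as a block, and Benjamini-Hochberg adjustment. The pairing comes from the animal. The deviations of both sides of a rat from the side means correlated between -0.128 and 0.177. P-values rest on the spread of the right minus left differences over 5 rats. Each variance was moderated by limma toward a trend over all transcripts tested. The fit was tested on simulated data. Shares, ranks and figures were made with Python 3.11.15, pandas 2.3.3, numpy 2.4.6 and matplotlib 3.10.9.

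By rule, the identifiers printed are those of the 2 transcripts with the largest rises and the 2 with the largest falls at an adjusted p under 0.05 with the same direction in all rats, and other transcripts are given by rank, since no table used here pairs identifiers with gene names. Planned gene lists were left out for that reason. The members and the tests were chosen with earlier results of these data known.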

Additional observations from a re-analysis of the deposited data

Results flagged for a closer look

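Dixon's ratio, with a critical value of 0.71, set 1 library or rat apart from the other 4 for 9 of the values reported. About 1 in 20 groups is expected to be so marked by chance. Over both sides of all 200 abundant transcripts 27 of 400 groups were (6.75%), of which 10 were marked by the left library of P52 and 6 by the right library of P71.

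Rank 98, ENSRNOT00000034401, was highest in the left library of P61 (ratio 0.93), at 1085 FPKM against 259 to 316.7 FPKM. The left library of P71 was the lowest for rank 69 (ratio 0.897), at 44.4 FPKM against 639.9 to 708 FPKM, and its right library was also the lowest of its side. The left library of P52 was the lowest for rank 3 (ratio 0.736), at 1797 FPKM against 2420.1 to 2644 FPKM. The left library of P72 had the highest share in the 10 highest transcripts (ratio 0.764), at 4.46% against 3.63% to 3.83%. The right library of P71 needed the most transcripts for 50% of the FPKM sum (ratio 0.922), 1377 against 1185 to 1200.0. Rank 43 was lowest in the left library of P52 (ratio 0.803), at 517 FPKM against 747 to 803 FPKM. The log2 change of rank 43 was the lowest in P72 (ratio 0.876), at 0.39 against 0.67 to 0.71. The log2 change of rank 98 was the lowest in P61 (ratio 0.758), at 0.63 against 1.997 to 2.43. The left library of P61 was the highest for the transcript that entered the ischemic list from rank 5805 (ratio 0.889), at 64.0 FPKM against 5.26 to 11.8 FPKM. No cause was tested for these.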

How the results depend on the processing

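The median change of the abundant transcripts, taken within each rat and averaged over the rats, was -0.19. It was below 0 in each of its 15 alternatives, from -0.10 to -0.24. Relative to all transcripts tested it was -0.20 as deposited and -0.18 after rescaling to TPM, which moved the median of all by less than 0.1. The ischemic share was lower in 15 of 16 alternatives and was higher by 0.0315 percentage points with the list drawn from the right libraries. The overlap of the 200 highest transcripts of the sides was 167 to 174 with each rat left out, and 82 of the 100 highest and 346 of the 400 highest were shared. The counts of calls moved, and those over all transcripts tested, 5.52% higher and 2.19% lower, also moved. Those called higher, 5 in all, were 3 without the replicate block by rat, 2 without a filter on low values, 8 after TPM, 3 with median-ratio scaling, 2 without a trend, 1 without moderation, 9 with the list from both sides, 16 with that from the right, and 0 to 3 with each rat left out. The share of all transcripts tested that was called higher was 6.72% without the block, 3.47% without a filter and 6.33% after TPM. It was 5.42% with median-ratio scaling, 4.09% without a trend, 1.95% without moderation and 1.19% to 5.43% with a rat left out. Those called lower, 13 in all, were 29 without the replicate block, 3 without a filter, 29 with a mean of at least 1 FPKM, 4 without a trend, 5 without moderation, and 0 to 31 with each rat left out. Over all transcripts tested the share called lower was 3.54% without the block, 1.19% without a filter, 3.59% with the stricter filter, 0.602% without a trend, 0.54% without moderation and 0.0573% to 2.94% with a rat left out. Fewer transcripts enter the adjustment with the stricter filter, and with a rat left out fewer samples enter the fit. The cause of these moves was not tested for any setting. The 4 transcripts named kept their direction in 15 alternatives each, and their adjusted p was above 0.05, so that the call was lost, in 3, 9, 4 and 7 of these, in the order of the report. Omitting rank 9 or rank 20, setting the list beside the next 200 transcripts and ranking single libraries were chosen after seeing the data. Without counts, the precision of single values cannot be given.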
